A study of Danio rerio with 8 samples.

Results

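The bone morphogenetic protein (BMP), activin and transforming growth factor beta (TGF-β) genes of the zebrafish were followed in EVs, mature OCs, OC precursors and OBs of the fractured scale. A gene was taken as a member by its symbol alone: *bmp*, *gdf*, *smad* or *tgfb* followed by a digit, any symbol beginning with *bmpr*, *tgfbr*, *acvr*, *inhb*, *nog*, *grem* or *fst*, and *chrd* and *inha*. The rule gave 86 of the 32057 genes listed. By role they were 33 ligands, 21 receptors, 15 antagonists and binding proteins, 13 Smads, 2 *bmp1* protease genes, the kinase gene *bmp2k* and the receptor-associated gene *tgfbrap1*. The last 4 of these genes met the rule by name and are kept apart from the ligands and receptors. The 86 members carried 66 symbols, and 40 of them shared their symbol with another gene, so such genes are told apart here by the last 5 digits of their Ensembl ID.

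Ligands of this family are secreted dimers that bring together type II and type I receptor kinases on the target cell. The type I receptor then phosphorylates receptor-regulated Smads (Smad1, Smad5 and Smad9 for BMPs, Smad2 and Smad3 for activins and TGF-βs), which enter the nucleus with Smad4, whereas Smad6 and Smad7 inhibit the signal. Noggin, Gremlin and Chordin bind BMPs outside the cell, and Follistatin and Fstl3 bind activins. In bone, BMPs are known for driving OB differentiation, and TGF-β and activin are known to act on both OBs and OCs.

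Messenger RNA was measured in 4 fractions sorted at 1 day post-fracture from scales of adult fish, which the labels give as wild type and the methods as carriers of the *trap:GFP* and *osterix:mCherry* transgenes. EV was the mCherry+ Hoechst-low gate, mOC the GFP-high Hoechst-high gate, pOC the GFP-low mCherry+ Hoechst-high gate and OB the GFP- mCherry+ Hoechst-high gate, where Hoechst is a DNA dye. All fractions thus came from fractured scales of the same transgenic background, and no unfractured scale was among the libraries. GFP was driven by an upstream region of the zebrafish *acp5a* gene and mCherry by one of the medaka *sp7* gene, so a fraction is what passed these gates and not a pure cell type, and mCherry taken up by an OC counts as mCherry of that cell. The number of fish behind a library is not given in the sources used here. The design held 2 libraries per fraction, but the values listed for both OB libraries were the same for all 32057 genes, and OB was therefore counted as 1 library, without an s.d.

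The 7 distinct libraries held 11814593 to 24435509 reads in genes. Levels are in RPM as deposited (a gene's reads scaled to a common total of reads per library), a unit that does not correct for gene length, so levels are compared between fractions and not between genes. The EV replicates were less alike than the others: their log2 values correlated at r = 0.877 across genes, against 0.963 for mOC and 0.96 for pOC. Osteoclast markers (8 genes) summed to 18938 and 19352 RPM in mOC, 4030.5 and 4201 in EV, 5795 and 6452 in pOC and 3211 in OB. Osteoblast markers (11 genes, *bglap* listed at 0 in every library) summed to 4892 RPM in OB, 1751 and 754 in EV, 402 and 164 in mOC and 2397 and 1831 in pOC. Macrophage markers (13 genes) summed to 10106 and 11948 RPM in EV, 1389 and 1498 in mOC, 9880.1 and 8279.5 in pOC and 1264 in OB. In each fraction 2 or 3 of the 13 were at 0. In EV, pOC and OB most of this sum was *lgmn*, at 9101 and 10725 RPM in EV, 599 and 468 in mOC, 8549 and 7069 in pOC and 984 in OB. Of the other genes, *csf1ra* was found at 92.2 and 91.9 RPM in EV, 173 and 201 in mOC, 176 and 197 in pOC and 32.8 in OB and *cd68* at 790.2 and 854 RPM in EV, 594 and 805 in mOC, 859.7 and 776 in pOC and 215 in OB. *marco* was found at 104 and 252 RPM in EV, 21.0 and 20.3 in mOC, 251 and 209.7 in pOC and 27.2 in OB. EV and pOC thus stood above mOC for *lgmn* and *marco* but not for *csf1ra*. Endothelial markers (3 genes) summed to at most 36.8 RPM in any library, and neutrophil markers (2 genes) to at most 19.1 RPM. In such bulk libraries, fewer cells of a type and less RNA per cell cannot be told apart.

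Of the 86 members, 61 reached 1 RPM in at least 2 libraries and were tested: 19 ligands, 19 receptors, 7 antagonists and binding proteins, 12 Smads, both *bmp1* genes, *bmp2k* and *tgfbrap1*. With limma, 6 comparisons were made, every fraction against the mean of the remaining ones, EV against OB, and mOC against pOC, and they share libraries with each other. A call required an adjusted p under 0.05 over all 14006 genes tested together with a log2 fold change above 1 or below -1, where the fold change (FC) is that of RPM + 1 and understates changes of low genes. FCs are given ± SE. In all, 19 members were called in at least 1 comparison. Among the 61 tested members the highest mean was that of EV for 7, of mOC for 9, of pOC for 5 and of OB for 40, or 65.6% in OB, against 32.7% of all genes tested. The lowest mean was that of EV for 18, of mOC for 33, of pOC for 6 and of OB for 4, or 54.1% in mOC, against 32% of all genes tested. These shares describe the levels and were not tested.

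In OB against the mean of the other fractions, 7 of 61 members were higher and 0 lower, against 2.1% and 2.09% of all genes tested. The 7 were 2 ligands, 2 receptors and 3 antagonists or binding proteins, and no Smad was among them. With limma 2 members were lower at an unadjusted p under 0.05, edgeR on recovered reads called 5 higher and 0 lower, and the median log2 fold change of the 61 was 1.12, against 0.11 for all genes. In mOC against the mean of the other fractions, 14 members were lower and 4 higher, against 6.17% and 3.47% of all genes, and the median was -0.57, against -0.09. The 14 were 6 ligands, 1 receptor, 4 antagonists or binding proteins and 3 Smads, whereas the 4 that were higher were 1 ligand and 3 receptors. In EV against the mean of the other fractions, 7 members were lower and 0 higher, against 3.23% and 3.11% of all genes, with 2 higher at an unadjusted p under 0.05, 0 higher in edgeR and a median of -0.44, against -0.13. They were 2 ligands, 4 receptors and 1 binding protein.

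In EV against OB, 8 members were lower and 0 higher, against 2.26% and 2.79% of all genes, with 1 higher at an unadjusted p under 0.05, 0 higher in edgeR and a median of -1.18, against -0.18. In mOC against pOC, 5 members were lower and 1 was higher, against 3.66% and 0.757% of all genes, with a median of -0.56, against -0.15. In pOC against the mean of the other fractions no member was called by limma in either direction, against 0.228% of all genes higher and 0.0143% lower. At an unadjusted p under 0.05 there were 2 members higher and 1 lower in pOC, and edgeR on recovered reads called 0. The scaling moved the centre of all genes: in EV against OB their median log2 fold change was -0.18 as deposited, 0.06 after quantile normalization and 0.00 in edgeR. No called member changed direction under these scalings.

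**Figure D1:**
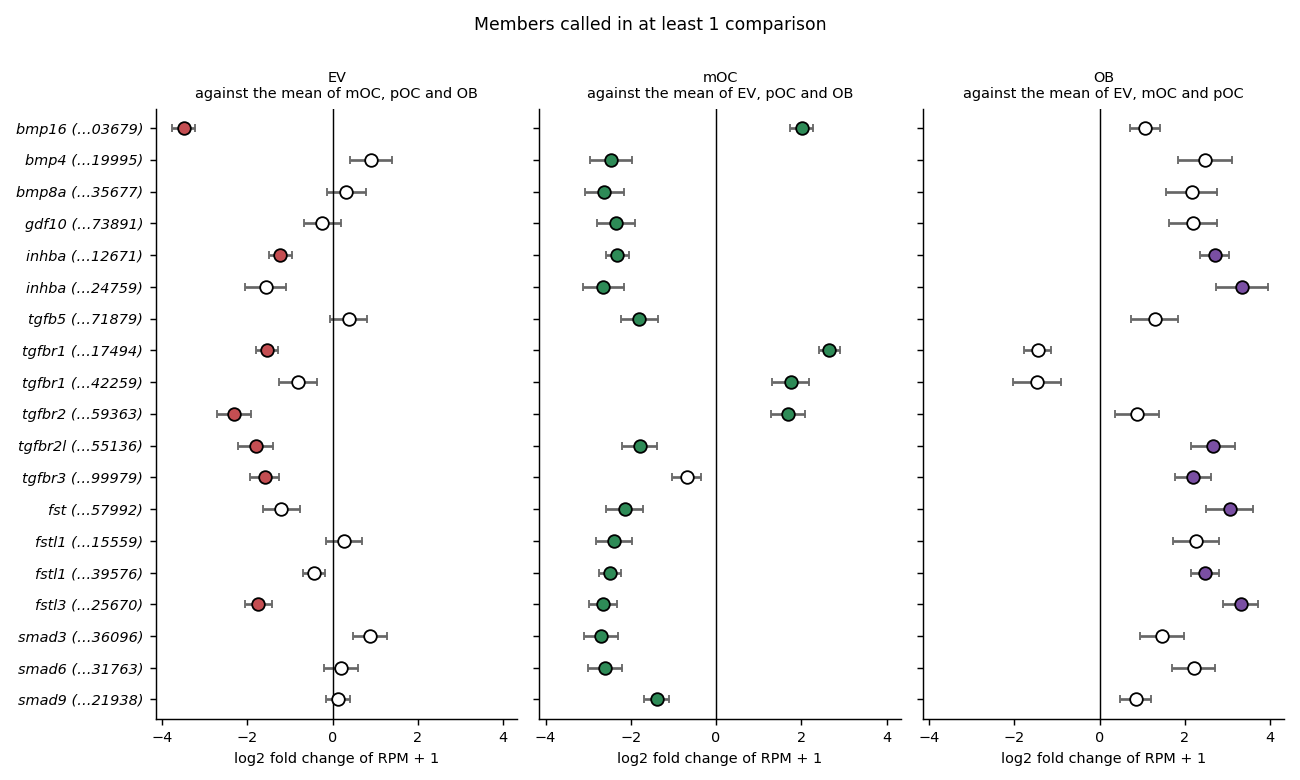
Log2 fold change of RPM + 1 with its SE (bars) for the 19 members called in at least 1 of 6 comparisons, in EV, mOC and OB each against the mean of the other 3 fractions. Filled points were called and open points were not. In mOC, 14 filled points lie below 0 and 4 above, whereas in OB all 7 lie above 0 and in EV all 7 below.

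The counts rested on few libraries, since 3 residual degrees of freedom were left in the fit and OB had 1 library. Without pOC replicate 1 or without pOC replicate 2, 0 members remained called in OB against the rest, in EV against the rest, in EV against OB and in mOC against pOC, and 0 to 5 of all genes were called in each of these. Without mOC replicate 1 there were 1, 1, 0 and 1 calls in these 4 comparisons, and without mOC replicate 2 there were 0, 1, 0 and 0. Over all genes these fits called 51 to 123 in each comparison. With every library the calls over all genes were 587, 889, 707 and 619. The member counts were 25, 15, 22 and 18 when EV replicate 1 was dropped. With EV replicate 2 dropped they were 22, 13, 16 and 17. Calls over all genes then numbered 2132, 2885, 2945 and 1578 for EV replicate 1 and 1910, 1851, 2055 and 1577 for EV replicate 2. Both counts thus exceeded those with every library. In mOC against the rest, 6 members were called without either pOC library, 4 without mOC replicate 1 and 2 without mOC replicate 2, and 23 or 28 without EV replicate 1 or 2. All genes called in mOC numbered 525 and 532 without a pOC library, 274 and 251 without an mOC library and 2636 and 2518 without an EV library, against 1350 with every library. Of the 46 calls, *tgfbr1* 17494 and *fstl1* 39576 in mOC against the rest were called with each of the 6 libraries left out. Every call kept the direction of its fold change in these fits. Without the OB library, an alternative chosen after seeing the data, 3 of the 7 EV calls (*bmp16*, *tgfbr1* 17494 and *tgfbr2* 59363) and 11 of the 18 mOC calls remained. The mOC calls then lost were those of *inhba* 24759, *bmp4*, *tgfb5*, *gdf10* 73891, *tgfbr1* 42259, *tgfbr2l* and *fst* 57992. With every library, 26 of the 61 members had an unadjusted p under 0.05 in limma in OB against the rest, against 18.8% of all genes. There were 18 in EV against the rest (25.7% of all genes), 23 in EV against OB (22%) and 19 in mOC against pOC (17.3%).

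Among the ligands, both activin subunit genes *inhba*, which encode the chain that dimerizes to activin A, stood highest in OB and lowest in mOC. *inhba* 12671 (ENSDARG00000012671) was found at 180.1 RPM in OB, 18.0 and 27.8 in EV, 12.4 and 12.2 in mOC and 59.9 and 77.6 in pOC. The single OB library lay above all others, the pOC libraries came next, and neither the EV nor the mOC libraries overlapped with them. The log2 fold change was 2.70 ± 0.34, adjusted p = 0.0123 in OB against the rest and -2.32 ± 0.27, adjusted p = 0.00291 in mOC against the rest. The log2 fold change was also -1.23 ± 0.27, adjusted p = 0.0442 in EV against the rest, -2.95 ± 0.39, adjusted p = 0.015 in EV against OB and -2.38 ± 0.32, adjusted p = 0.0106 in mOC against pOC. The call in EV against the rest was made in 8 of 17 other settings, and was lost among others with edgeR, without EV replicate 1 (log2 fold change -0.93) and without the OB library (log2 fold change -0.37). *inhba* 24759 (ENSDARG00000024759) was found at 45.3 RPM in OB, 1.22 and 4.85 in EV, 0.93 and 1.18 in mOC and 11.0 and 12.8 in pOC, with the same order of OB and pOC above the rest. Its EV replicate 1 lay close to both mOC libraries and EV replicate 2 above them. It was higher in OB (log2 FC 3.34 ± 0.61, adjusted p = 0.0331) and lower in mOC, both against the rest (log2 FC -2.65 ± 0.48, adjusted p = 0.0156) and against pOC (log2 FC -2.65 ± 0.57, adjusted p = 0.0488), and lower in EV than in OB (log2 FC -3.68 ± 0.69, adjusted p = 0.0334). When 1 library was left out, its log2 fold change in OB against the rest was 3.11 to 3.57 and that of *inhba* 12671 was 2.60 to 2.80. For *inhba* 24759, the call in mOC against pOC was made in 8 of 18 other settings and that in EV against OB in 9 of 17. Both were lost with edgeR. Its OB call was made in 10 of 16 and its call in mOC against the rest in 12 of 17.

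Other activin-type chains gave no call. *inhbb* 40777 (ENSDARG00000040777), a second activin β chain, was listed at 37.0 and 0 RPM in EV, 13.9 and 12.0 in mOC, 18.1 and 23.9 in pOC and 45.2 in OB. Its EV libraries spanned nearly the whole range of the other fractions, so no difference could be told from the spread (EV against OB log2 FC -2.90 ± 1.77, adjusted p = 0.393). The second *inhbb* gene and *inha*, the inhibin α chain, did not exceed 0.21 RPM in any library.

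BMP ligands differed in where they were high. *bmp4* (ENSDARG00000019995), an inducer of bone formation, was found at 2.78 and 0.42 RPM in mOC, 14.0 and 11.0 in EV, 5.28 and 3.33 in pOC and 29.4 in OB, and *bmp8a* (ENSDARG00000035677) at 6.18 and 1.78 RPM in mOC, 14.4 and 26.6 in EV, 16.4 and 19.1 in pOC and 52.6 in OB. For both genes each mOC library lay below all other libraries. *bmp4* was -2.47 ± 0.49, adjusted p = 0.0224 and *bmp8a* -2.62 ± 0.46, adjusted p = 0.0145 in mOC against the rest (log2 fold change), and neither was called in another comparison. When an mOC or a pOC library was left out neither remained called, with a log2 fold change of -3.18 to -1.77 for *bmp4* and -3.30 to -1.93 for *bmp8a*.

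*bmp2* 13409 (ENSDARG00000013409) was found at 39.9 RPM in OB, 0.15 and 12.0 in EV, 0.77 and 0.76 in mOC and 10.7 and 9.00 in pOC. Its EV replicates lay near the lowest and among the higher libraries, and the difference of OB was not called (log2 fold change 3.29 ± 1.11, adjusted p = 0.164). Nor was mOC against pOC (log2 fold change -2.62 ± 1.03, adjusted p = 0.25), where the SE includes the spread of the EV replicates. *bmp2* 41430 was found at 4.21 RPM in OB, 0.1 and 1.68 in EV, 0.77 and 0.34 in mOC and 1.76 and 1.27 in pOC, again with EV replicate 1 near 0 and OB highest (log2 FC 1.47 ± 0.60, adjusted p = 0.243). Thus both *bmp2* genes had their highest level in the 1 OB library, and neither passed the test.

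*bmp16* (ENSDARG00000103679), a ligand of the Bmp2/Bmp4 group found in fish, was the ligand that was higher in mOC. It was found at 126 and 112 RPM in mOC, 4.31 and 7.88 in EV, 51.0 and 51.8 in pOC and 72.6 in OB. The libraries of the 4 fractions did not overlap: both mOC libraries were highest, OB next, then pOC, and both EV libraries were lowest. It was higher in mOC (log2 FC 2.01 ± 0.27, adjusted p = 0.00531) and lower in EV, against the rest (log2 FC -3.49 ± 0.27, adjusted p = 0.00484) as well as against OB (log2 FC -3.42 ± 0.40, adjusted p = 0.0124). With 1 library left out, the log2 fold change of EV against the rest was -3.87 to -3.12 and remained called except without either pOC library, and that of mOC was 1.89 to 2.13 and remained called except without either mOC library. The low EV level is part of the mean that mOC was set against. In mOC against pOC, *bmp16* was not called (log2 FC 1.20 ± 0.32, adjusted p = 0.0976).

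*bmp6* (ENSDARG00000015686), at 48.0 and 7.38 RPM in EV, 8.03 and 7.19 in mOC, 10.8 and 11.3 in pOC and 22.6 in OB, and *bmp7* (ENSDARG00000063230), at 5.19 and 0 RPM in EV, 1.39 and 1.02 in mOC, 4.5 and 1.81 in pOC and 1.27 in OB, varied most within EV. In both genes EV replicate 1 held the highest and EV replicate 2 the lowest or second-lowest value of all libraries. Neither was called in any comparison, with a log2 fold change of EV against OB of -0.22 ± 0.93 for *bmp6* and 0.13 ± 1.07 for *bmp7*. *bmp7a* did not pass the filter and was listed at 2.41 RPM in OB, 0 and 0 in EV, 0.31 and 0 in mOC and 0.94 and 0.33 in pOC.

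Of the TGF-β ligands proper, 4 of 5 gave no call. *tgfb3* (ENSDARG00000019367) was found at 126 and 22.0 RPM in EV, 58.1 and 38.3 in mOC, 80.8 and 77.7 in pOC and 164 in OB, and the EV replicates alone spanned most of this range (EV against OB log2 FC -1.61 ± 0.87, adjusted p = 0.336). *tgfb1a* (ENSDARG00000041502) was found at 58.8 RPM in OB, 38.4 and 14.6 in EV, 12.1 and 14.6 in mOC and 24.5 and 25.1 in pOC, with OB above all other libraries but without passing the test (OB against the rest log2 FC 1.52 ± 0.50, adjusted p = 0.157). *tgfb1b* (ENSDARG00000034895) was found at 30.2 and 35.0 RPM in mOC, 15.9 and 31.7 in EV, 18.1 and 25.4 in pOC and 15.8 in OB, where OB was the lowest of the 7 libraries (mOC against the rest log2 FC 0.70 ± 0.35, adjusted p = 0.278). The paralogs *tgfb1a* and *tgfb1b* therefore had their highest level in different fractions, OB and mOC, but no difference of either passed the test. *tgfb2* did not exceed 3.49 RPM. *tgfb5* (ENSDARG00000071879) was found at 0.62 and 1.44 RPM in mOC, 4.12 and 6.44 in EV, 5.28 and 3.74 in pOC and 8.9 in OB, with both mOC libraries below all others, and it was called lower in mOC (log2 FC -1.80 ± 0.43, adjusted p = 0.041). That call was lost when any one of the mOC or pOC libraries was left out.

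The *gdf10* genes encode Gdf10, a ligand close to Bmp3. *gdf10* 73891 (ENSDARG00000073891) was found at 5.87 and 3.22 RPM in mOC, 17.6 and 13.0 in EV, 13.4 and 33.9 in pOC and 56.5 in OB, with both mOC libraries lowest and OB highest, and was called lower in mOC (log2 FC -2.35 ± 0.44, adjusted p = 0.018). *gdf10* 95378 was found at 5.33 and 0.34 RPM in mOC, 4.61 and 3.17 in EV, 17.2 and 12.4 in pOC and 53.5 in OB, where mOC replicate 1 lay above both EV libraries, and its difference was just short of the threshold (log2 FC -2.46 ± 0.62, adjusted p = 0.0505). The remaining tested ligands, *bmp15* and *gdf9*, did not exceed 2.08 RPM. Of the 14 ligands that were not tested, *bmp3* reached 4.28 RPM in OB, and *gdf5* was listed at 2.63 RPM in pOC replicate 2 and at 0 elsewhere. *gdf6a* was at 1.87 RPM in OB and at most 0.08 RPM in the other libraries, while *gdf11* and 1 of 2 *bmp10* genes were listed at 0 in every library.

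**Figure D2:**
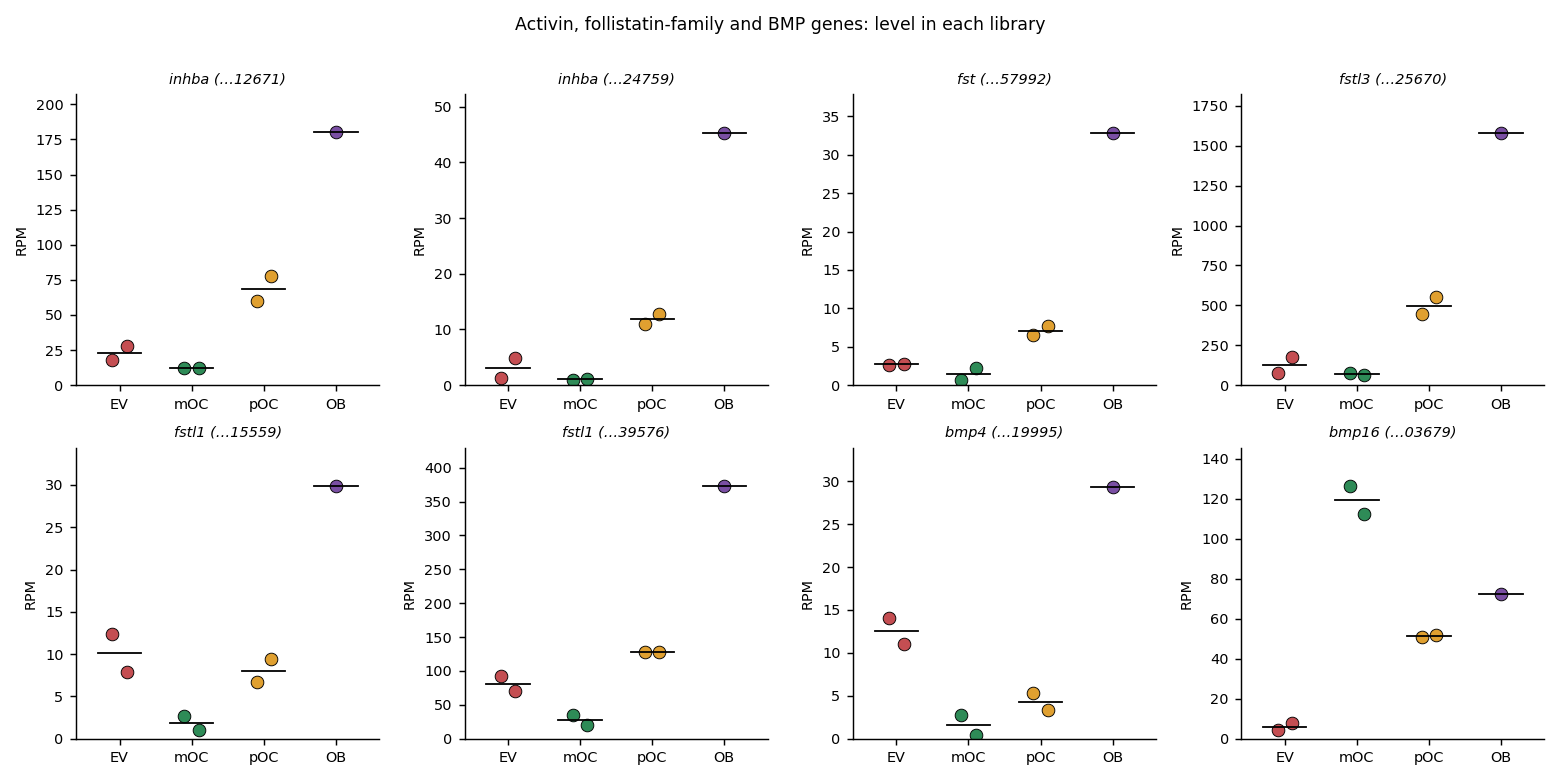
Level in RPM of 8 ligand and follistatin-family genes in each library (points), grouped as EV, mOC, pOC and OB, with the fraction mean (line). Each panel has its own axis from 0, and the digits are the end of the Ensembl ID. OB holds the highest value in 7 of the 8 panels, and *bmp16* is highest in mOC, at 126 and 112 RPM.

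Of the 4 members called higher in mOC, 3 were TGF-β receptor genes. *tgfbr1* 17494 (ENSDARG00000017494), 1 of the genes of the type I TGF-β receptor, was found at 135 and 143 RPM in mOC, 12.2 and 17.7 in EV, 45.3 and 36.1 in pOC and 15.5 in OB. Both mOC libraries lay above all others and both pOC libraries above EV and OB, while OB lay between the EV replicates. Its level was higher in mOC against the rest (log2 FC 2.66 ± 0.25, adjusted p = 0.00139) and against pOC (log2 FC 1.76 ± 0.30, adjusted p = 0.0225), and lower in EV against the rest (log2 FC -1.54 ± 0.25, adjusted p = 0.0222). With 1 library left out, the mOC value stayed between 2.58 and 2.75 and was called each time. *tgfbr1* 42259 (ENSDARG00000042259) was found at 4.87 and 3.81 RPM in mOC, 0.98 and 0 in EV, 1.43 and 2.22 in pOC and 0 in OB, with mOC highest. It was called in mOC (log2 FC 1.75 ± 0.44, adjusted p = 0.0491), which was lost in 12 of 16 other settings.

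Type II TGF-β receptor genes followed different orders. *tgfbr2* 59363 (ENSDARG00000059363) was found at 36.7 and 50.4 RPM in mOC, 2.65 and 7.43 in EV, 16.3 and 14.2 in pOC and 28.0 in OB, again with both mOC libraries above all others and both EV libraries below. This gene was higher in mOC (log2 FC 1.68 ± 0.40, adjusted p = 0.042) and lower in EV (log2 FC -2.31 ± 0.40, adjusted p = 0.0254), each against the rest. Against pOC alone its mOC level was not called. The mOC call was made in 10 of 17 other settings and the EV call in 11 of 17, and both were lost with edgeR. With 1 library left out, the log2 fold change was 1.45 to 1.90 in mOC and -2.91 to -1.70 in EV. *tgfbr2* 34541 (ENSDARG00000034541) was found at 165 and 38.2 RPM in EV, 252 and 141 in mOC, 134 and 127 in pOC and 272 in OB, and the EV and mOC replicates each spread too widely for a difference to be told (EV against OB log2 FC -1.76 ± 0.77, adjusted p = 0.24). The related gene *tgfbr2l* (ENSDARG00000055136) was instead found at 10.6 RPM in OB, 0.29 and 0 in EV, 0.31 and 0 in mOC and 4.87 and 2.79 in pOC, with OB highest, pOC next and EV and mOC overlapping near 0. Its fold change was positive in OB (log2 FC 2.66 ± 0.52, adjusted p = 0.0401), and negative in mOC (log2 FC -1.79 ± 0.41, adjusted p = 0.035), in EV (log2 FC -1.80 ± 0.41, adjusted p = 0.0463) and in EV against OB (log2 FC -3.35 ± 0.59, adjusted p = 0.0292).

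*tgfbr3* (ENSDARG00000099979), the co-receptor betaglycan, was found at 6.15 RPM in OB, 0 and 0 in EV, 0.7 and 0.51 in mOC and 1.35 and 1.44 in pOC. It was listed at 0 in both EV libraries, where 3 reads would be 0.147 and 0.149 RPM. Against that floor per library it was at least 41.6-fold lower in EV than in OB, where the floor covers counting error only. It does not cover the spread between EV libraries, in which *inhbb* 40777 was listed at 37.0 and 0 RPM. The fitted log2 fold change of *tgfbr3* depends on the pseudocount (-2.84 ± 0.49, adjusted p = 0.0292). It was higher in OB against the rest (log2 FC 2.19 ± 0.43, adjusted p = 0.0415) and lower in EV against the rest (log2 FC -1.59 ± 0.34, adjusted p = 0.0412). All calls of *tgfbr2l* and *tgfbr3* were lost with edgeR and when any one of the mOC or pOC libraries was left out.

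Activin and BMP receptors gave no call. *acvrl1* (ENSDARG00000018179), which encodes Alk1, a type I receptor best known from endothelium, was found at 371 and 270.0 RPM in EV, 303 and 201 in mOC, 326 and 265 in pOC and 315 in OB, and its log2 fold changes lay between -0.32 ± 0.23 in mOC and 0.16 ± 0.23 in EV against the rest. Of the 3 endothelial markers, *fli1* was found at 22.3 and 14.8 RPM in EV, 10.7 and 7.11 in mOC, 7.86 and 9.57 in pOC and 7.89 in OB. *kdrl* was found at 14.4 and 0 RPM in EV, 0.15 and 1.27 in mOC, 4.75 and 1.36 in pOC and 7.09 in OB. *cdh5* did not exceed 0.08 RPM. The part of these cells in the level of *acvrl1* was not tested. *acvr1l* (ENSDARG00000014986), a type I BMP receptor of zebrafish, was found at 55.1 and 46.9 RPM in EV, 28.8 and 20.2 in mOC, 31.2 and 19.5 in pOC and 48.1 in OB, where EV and OB overlapped and mOC and pOC overlapped (EV against the rest log2 FC 0.71 ± 0.29, adjusted p = 0.186). *acvr1b* 18968 (ENSDARG00000018968), a type I activin receptor, was found at 28.4 and 27.4 RPM in EV, 47.0 and 58.1 in mOC, 39.1 and 52.9 in pOC and 53.2 in OB, with both EV libraries below the other 5 and a log2 fold change of -0.83 ± 0.24, adjusted p = 0.087. *bmpr1a* 05045, a type I BMP receptor, was found at 71.0 RPM in OB, 4.51 and 19.3 in EV, 6.41 and 12.2 in mOC and 23.9 and 19.5 in pOC, with OB highest, and the type II BMP receptor gene *bmpr2* 20057 at 1.08 and 5.99 RPM in EV, 7.26 and 5.16 in mOC, 11.2 and 8.05 in pOC and 9.63 in OB. *acvr2ab* and *bmpr1ba* were listed at 0 in both EV libraries, and against the floor they were at least 29.9-fold and 28.9-fold lower in EV than in OB. These limits cover counting error only and not the spread between EV libraries. Placing such genes at their bounds changed no median given for the members. *acvr1c* was listed at 1.94 RPM in OB and at 0 in the other libraries, and was not tested.

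**Figure D3:**
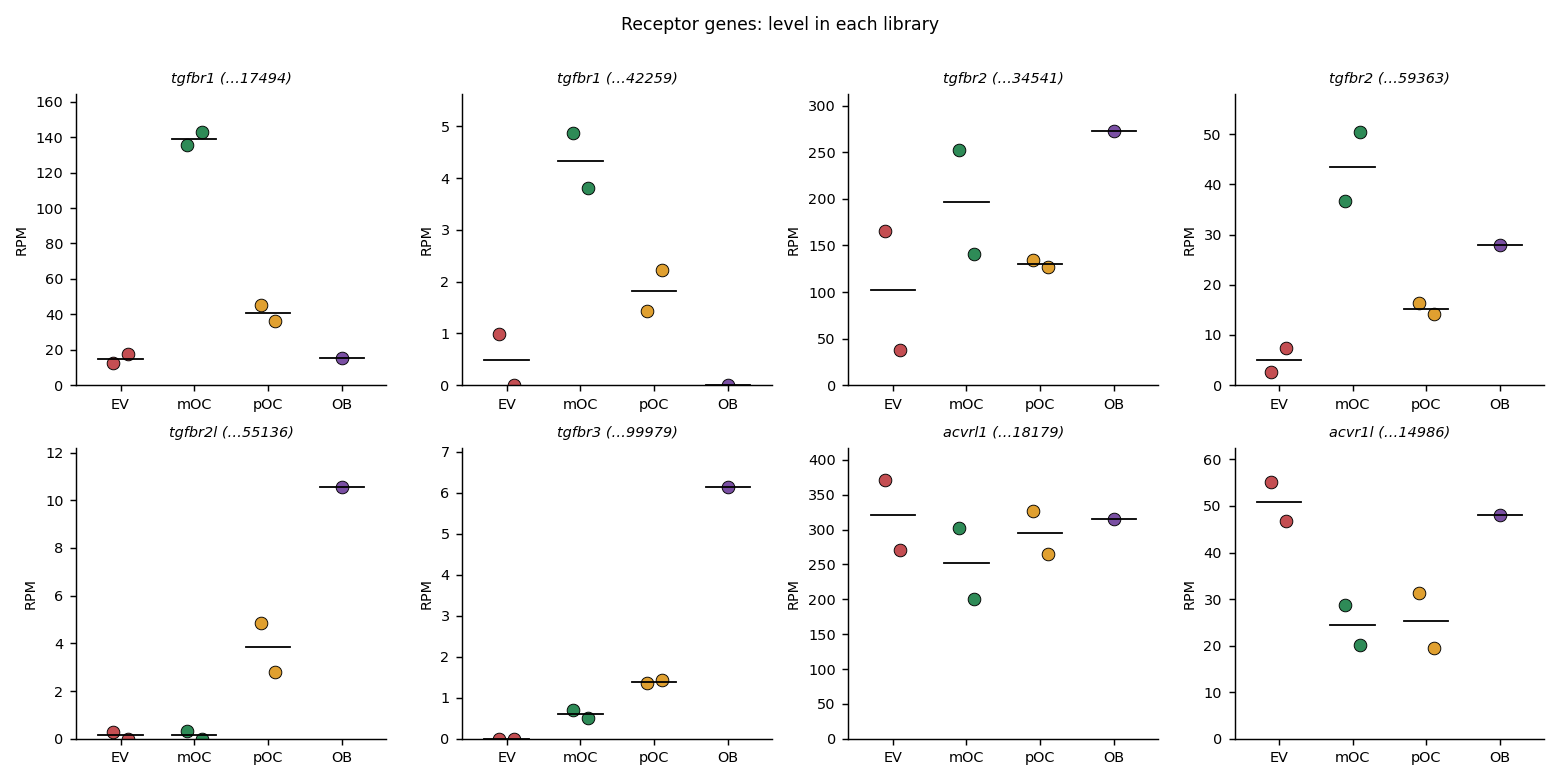
Level in RPM of 8 receptor genes in each library (points), grouped as EV, mOC, pOC and OB, with the fraction mean (line) and an axis from 0 in each panel. *tgfbr1* 17494 is highest in mOC at 135 and 143 RPM, *tgfbr2l* and *tgfbr3* are highest in OB, and *acvrl1* lies between 201 and 371 RPM in all libraries.

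Antagonists and binding proteins had their highest mean in OB in all 7 tested genes and their lowest in mOC in 6 of the 7, against 32.7% and 32% of all genes tested. OB was 1 library, and for *chrd* it lay below EV replicate 2 and pOC replicate 2. These counts were not tested. The follistatin-type genes carried the calls. *fst* 57992 (ENSDARG00000057992), which encodes the activin-binding protein Follistatin, was found at 32.9 RPM in OB, 2.65 and 2.77 in EV, 0.62 and 2.2 in mOC and 6.51 and 7.72 in pOC. OB was highest and both pOC libraries lay above EV and mOC. The gene was higher in OB (log2 FC 3.05 ± 0.55, adjusted p = 0.0311) and lower in mOC (log2 FC -2.14 ± 0.43, adjusted p = 0.0229) and in EV against OB (log2 FC -3.19 ± 0.62, adjusted p = 0.0361). The mOC call was made in 10 of 17 other settings and that in EV against OB in 9 of 17, and both were lost with edgeR. The OB call was made in 11 of 16 and was lost among others with a pseudocount of 0.1 RPM. *fstl3* (ENSDARG00000025670), a second activin-binding protein, was found at 1583 RPM in OB, 74.5 and 174 in EV, 76.5 and 65.1 in mOC and 443 and 552 in pOC. Its OB and pOC levels did not overlap with each other or with the rest, while EV replicate 1 lay between the mOC replicates. It was higher in OB (log2 FC 3.31 ± 0.41, adjusted p = 0.0118) and lower in mOC (log2 FC -2.65 ± 0.32, adjusted p = 0.00345) and EV (log2 FC -1.74 ± 0.32, adjusted p = 0.0296), and likewise in EV against OB (log2 FC -3.78 ± 0.47, adjusted p = 0.0132) and mOC against pOC (log2 FC -2.79 ± 0.38, adjusted p = 0.012). The call in EV against the rest was made in 10 of 17 other settings, and was lost among others with edgeR and without the OB library (log2 FC -0.71).

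*fstl1* 39576 (ENSDARG00000039576), a secreted glycoprotein with a follistatin-like domain, was found at 373 RPM in OB, 92.4 and 70.3 in EV, 35.6 and 21.0 in mOC and 128 and 128 in pOC, and no library of a fraction overlapped with another fraction. It was higher in OB (log2 FC 2.48 ± 0.33, adjusted p = 0.0133) and lower in mOC against the rest (log2 FC -2.48 ± 0.26, adjusted p = 0.00193) and against pOC (log2 FC -2.18 ± 0.30, adjusted p = 0.0122). The mOC call was made with each library left out, at -2.84 to -2.11. EV was lower than OB (log2 FC -2.20 ± 0.37, adjusted p = 0.0281) but was not called against the rest (log2 FC -0.44 ± 0.26, adjusted p = 0.323). *fstl1* 15559 (ENSDARG00000015559) was found at 2.7 and 1.02 RPM in mOC, 12.4 and 7.92 in EV, 6.67 and 9.45 in pOC and 29.8 in OB, with both mOC libraries lowest, and was called only in mOC against the rest (log2 FC -2.40 ± 0.42, adjusted p = 0.014). The EV and pOC libraries of this gene overlapped.

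The BMP antagonists were low and gave no call. *grem1* 04618 (Gremlin) was found at 4.82 RPM in OB, 3.67 and 1.83 in EV, 0.77 and 0.17 in mOC and 0.78 and 1.15 in pOC, with OB and EV replicate 1 highest (OB against the rest log2 FC 1.42 ± 0.55, adjusted p = 0.215). *nog2* (ENSDARG00000043066), a Noggin gene, was found at 2.3 and 0 RPM in EV, 4.71 and 3.81 in mOC, 4.71 and 7.8 in pOC and 8.16 in OB, with both EV libraries below the others (EV against the rest log2 FC -1.94 ± 0.56, adjusted p = 0.0873). *chrd* (ENSDARG00000006110), which encodes Chordin, was found at 0 and 3.81 RPM in EV, 1.31 and 0 in mOC, 0.41 and 4.11 in pOC and 2.34 in OB, and its replicates differed in EV, mOC and pOC alike (EV against the rest log2 FC -0.12 ± 0.80, adjusted p = 0.943). The other 2 *nog* genes and *fstl4* did not exceed 0.7 RPM, and *fstl5*, 1 *fst* and 1 *grem1* gene were listed at 0 throughout. Both *nog* genes were at 0 in EV, which allows up to 0.149 RPM at 3 reads.

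Of the 12 tested Smads, 3 were called, each lower in mOC (25%, against 6.17% of all genes tested). The Smads as a role were not lower there. In mOC against the rest 7 of the 12 had a positive fold change and 5 a negative one. Their median log2 fold change was 0.08, against -0.09 for all genes. *smad3* 36096 (ENSDARG00000036096), which transmits activin and TGF-β signals, was found at 1.31 and 1.61 RPM in mOC, 21.3 and 10.1 in EV, 11.8 and 9.9 in pOC and 20.4 in OB, with both mOC libraries below 2 RPM and all others above 9 RPM. It was lower in mOC against the rest (log2 FC -2.69 ± 0.40, adjusted p = 0.00734) and against pOC (log2 FC -2.27 ± 0.48, adjusted p = 0.0462). The call against pOC was made in 9 of 18 other settings, and was lost among others with edgeR and without any one of the mOC or pOC libraries. *smad6* 31763 (ENSDARG00000031763), an inhibitory Smad, was found at 6.41 and 2.37 RPM in mOC, 19.4 and 21.4 in EV, 24.1 and 16.9 in pOC and 59.7 in OB. Both mOC libraries were lowest and OB highest, and the call was in mOC (log2 FC -2.60 ± 0.40, adjusted p = 0.00785). *smad9* (ENSDARG00000021938), a Smad of BMP signals, was found at 13.3 and 8.55 RPM in mOC, 23.2 and 26.2 in EV, 29.1 and 28.2 in pOC and 36.3 in OB, and its fractions did not overlap, with OB highest, then pOC and EV, and mOC lowest (mOC against the rest log2 FC -1.39 ± 0.29, adjusted p = 0.025).

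*smad5* (ENSDARG00000037238), another Smad of BMP signals, was found at 109 and 135 RPM in EV, 156 and 128 in mOC, 115 and 107 in pOC and 145 in OB. EV overlapped with mOC and with pOC, and the log2 fold changes of each fraction against the rest lay between -0.28 ± 0.19 in pOC and 0.23 ± 0.24 in OB. *smad2* was found at 15.0 and 8.22 RPM in EV, 14.6 and 13.0 in mOC, 14.4 and 13.1 in pOC and 15.7 in OB, with the mOC and pOC libraries between the EV replicates and OB highest. *smad7* (ENSDARG00000016858), the second type of inhibitory Smad, was found at 4.95 and 13.5 RPM in EV, 17.1 and 18.2 in mOC, 18.9 and 19.3 in pOC and 26.4 in OB, with both EV libraries lowest (EV against the rest log2 FC -1.23 ± 0.40, adjusted p = 0.115). *smad10b* (ENSDARG00000070428) was found at 79.4 and 48.2 RPM in mOC, 32.9 and 39.1 in EV, 37.5 and 26.7 in pOC and 24.0 in OB and was not called (log2 FC 1.02 ± 0.29, adjusted p = 0.0773). *smad1* was listed at 0 in every library. *smad4* 75226 was found at 13.7 and 0.25 RPM in EV, 7.57 and 3.64 in mOC, 7.82 and 3.78 in pOC and 5.69 in OB, with both the highest and the lowest value in EV. *smad3* 10207 was found at 15.6 and 0 RPM in EV, 5.79 and 13.8 in mOC, 5.44 and 18.6 in pOC and 31.8 in OB, where EV replicate 2 was lowest and OB highest. The second *smad4* gene, *smad6* 53209 and *smad10a* did not exceed 7.57 RPM, and these genes, like *smad4* 75226 and *smad3* 10207, were not called.

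Of the genes that met the rule by name, *bmp1* 28053, a metalloprotease of the Tolloid type that cleaves Chordin and procollagen, was found at 26.0 RPM in OB, 11.0 and 25.4 in EV, 4.48 and 2.96 in mOC and 2.62 and 6.2 in pOC, with EV replicate 2 close to OB (OB against the rest log2 FC 1.85 ± 0.62, adjusted p = 0.16). *bmp2k* (ENSDARG00000020009), a kinase gene named for its induction by Bmp2, was found at 39.8 and 26.4 RPM in EV, 24.5 and 26.1 in mOC, 20.5 and 25.8 in pOC and 15.6 in OB, where OB was lowest (EV against OB log2 FC 1.01 ± 0.41, adjusted p = 0.207). *tgfbrap1* ranged between 3.91 and 20.7 RPM, and both ends were EV libraries. None of them was called.

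The spread within EV bore on many members. Of the 61 tested members, 27 differed more than 2-fold on the RPM + 1 scale between the EV replicates, or 44.3%, against 33.4% of all genes tested. Between the mOC replicates 9 did so (14.8%, against 10.5%), and between the pOC replicates 7 (11.5%, against 11%). For *inhbb* 40777, *bmp7*, *smad3* 10207 and *bmpr1bb*, EV replicate 2 was listed at 0 while EV replicate 1 lay between 5.19 and 37.0 RPM, and for *bmp2* 13409 replicate 1 was at 0.15 and replicate 2 at 12.0 RPM. Among the 7 members called in EV, *bmp16*, *tgfbr2* 59363 and *tgfbr3* lay below every other library in both EV replicates. The call itself largely sets a low EV level. No share for all genes is given, so this is not a result about the members.

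**Figure D4:**
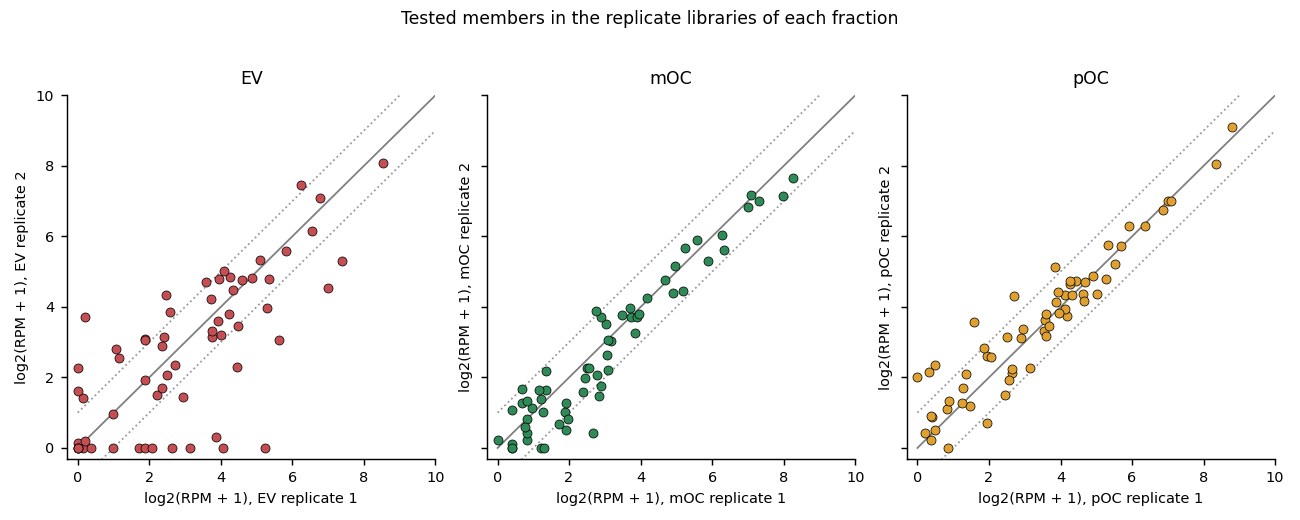
Log2(RPM + 1) of the 61 tested members in replicate 2 (y axis) against replicate 1 (x axis) of EV, mOC and pOC; OB has 1 library and no panel. The solid line marks equal levels and the dotted lines a 2-fold difference, which 27 members exceed in EV, 9 in mOC and 7 in pOC.

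Genes around the pathway were taken from 4 lists of further modulators, co-receptors, intracellular regulators and target genes, 88 genes outside the rule of which 78 were tested. Against the rest, 12 of the 78 (15.4%, against 2.1% of all genes) were higher in OB and 18 (23.1%, against 6.17%) lower in mOC. In EV 2 (2.56%, against 3.11%) were higher and 3 (3.85%, against 3.23%) lower, shares near those of all genes. For both genes higher in EV, *bmper* and *bgn* 17884, the OB level lay above both EV libraries. In pOC 0 were called by limma, and 8 of the 78 had an unadjusted p under 0.05, against 8.95% of all genes. In EV against OB 6 (7.69%, against 2.26%) were lower, and in mOC against pOC 12 (15.4%, against 3.66%) were lower. The target gene *ccn2* 42934, which encodes connective tissue growth factor, was found at 120.3 RPM in OB, 21.6 and 14.5 in EV, 12.1 and 14.1 in mOC and 61.3 and 48.9 in pOC, higher in OB (log2 FC 2.31 ± 0.35, adjusted p = 0.0181) and lower in mOC (log2 FC -1.83 ± 0.27, adjusted p = 0.00726) and EV (log2 FC -1.29 ± 0.27, adjusted p = 0.0405). The EV call was lost with edgeR and without the OB library (log2 FC -0.59). It had OB highest and pOC next, without overlap with EV and mOC, which is the order also seen for *inhba* 12671.

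The BMP target *dlx5*, an OB transcription factor, was found at 1.47 and 1.27 RPM in mOC, 15.2 and 15.4 in EV, 15.0 and 16.1 in pOC and 41.7 in OB, with mOC below all others (log2 FC -3.25 ± 0.31, adjusted p = 0.00144). *id2b*, likewise a BMP target, was found at 1.54 and 1.02 RPM in mOC, 6.42 and 5.15 in EV, 13.6 and 14.8 in pOC and 12.6 in OB (log2 FC -2.30 ± 0.37, adjusted p = 0.00888). Its paralog *id2* 55283, in the same list, instead had its highest mean in mOC and was not called. It was found at 96.9 and 112 RPM in mOC, 56.3 and 119 in EV, 97.8 and 105 in pOC and 63.0 in OB. Of the modulators, *bambi* 55381, a decoy receptor, was found at 11.0 and 10.8 RPM in mOC, 33.2 and 32.9 in EV, 38.3 and 37.6 in pOC and 84.5 in OB and was lower in mOC (log2 FC -2.02 ± 0.23, adjusted p = 0.00271). The BMP-binding protein gene *bmper* was found at 2.55 and 4.15 RPM in mOC, 65.0 and 52.3 in EV, 36.9 and 22.4 in pOC and 77.1 in OB, lower in mOC (log2 FC -3.59 ± 0.32, adjusted p = 0.00118) and higher in EV against the rest (log2 FC 1.46 ± 0.32, adjusted p = 0.0447), a call made in 9 of 17 other settings. The low mOC level is part of the mean that EV was set against. OB lay above both EV libraries, and *bmper* was not called in EV against OB. *dcn*, which encodes the TGF-β-binding proteoglycan decorin, was found at 74.5 and 60.6 RPM in mOC, 546 and 492 in EV, 519 and 526 in pOC and 1480.5 in OB and was lower in mOC (log2 FC -3.44 ± 0.16, adjusted p = 0.000202). The co-receptor gene *neo1* 02855 was found at 8.19 and 6.6 RPM in mOC, 18.4 and 18.2 in EV, 21.0 and 38.7 in pOC and 79.3 in OB and was lower in mOC (log2 FC -2.10 ± 0.33, adjusted p = 0.00855). Besides mOC, *dlx5*, *bambi* 55381, *bmper*, *dcn* and *neo1* 02855 were also called higher in OB against the rest. Those OB calls were made in 8 (*bmper*) to 14 (*dcn*) of 16 other settings. *dcn* was also called lower in EV against OB. Of the 21 tested intracellular regulators, *ski*, a Smad co-repressor, was the only one called, lower in mOC (log2 FC -1.18 ± 0.24, adjusted p = 0.0243), and that call was lost with edgeR and without the OB library (log2 FC -0.83). Of the 53 calls in these lists, 53 were made without either EV library, but 13 without mOC replicate 1, 10 without mOC replicate 2, 9 without pOC replicate 1 and 10 without pOC replicate 2. The mOC values of *dlx5*, *bmper* and *dcn* were called with each of these libraries left out.

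Marker sums of some cell types, but not of all, had their highest and lowest levels in the same fractions as many of these genes. Fibroblast markers (6 genes, none at 0, with *dcn* also in the modulator list) summed to 3891 RPM in OB, 1365 and 1204 in EV, 338 and 271 in mOC and 1314 and 1462 in pOC, and the osteoblast sum had the same extremes, OB highest and mOC lowest. Most of the osteoblast sum was collagen genes, with *col1a1a* at 2594 RPM in OB. Within that list *sp7*, *phospho1* and *runx2b* instead had their lowest mean in EV. For *alpl* and *entpd5* EV replicate 2 lay above OB, and for *runx2* 40261 pOC replicate 2 did. Of the 7 members called higher in OB, 5 had their lowest mean in mOC, while *tgfbr2l* and *tgfbr3* had theirs in EV. Of the 14 called lower in mOC, 14 had their highest mean in OB, and 13 their lowest in mOC, *tgfbr2l* being the exception. The call itself largely sets a high OB level in the first group and a low mOC level in the second. Shares for all genes called alike are not given, so these counts are not a result about the members. The osteoclast sum was highest in mOC, as were *tgfbr1* 17494, *tgfbr2* 59363 and *bmp16*, and lowest in OB. Within that list *nfatc1*, at 406 and 284 RPM in mOC, 27.4 and 15.7 in EV, 118 and 119 in pOC and 124 in OB, had the order of fractions of *bmp16* and *tgfbr2* 59363, with OB between mOC and pOC and EV lowest. By mean, *mmp9* also had this order. The other markers of the list, *acp5*, *ctsk*, *ca2*, *ocstamp* and both *tcirg1* genes, instead had their lowest mean in OB. Keratinocyte markers (5 genes) summed to 1454 and 438 RPM in EV, 971 and 678 in mOC, 1059 and 976 in pOC and 1538 in OB. Pigment cell markers (8 genes) summed to 125 and 959 RPM in EV, 722 and 499 in mOC, 379.6 and 364 in pOC and 11.6 in OB, and OB had the lowest pigment sum. The part of these cell types in the results was not tested.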

How the data were processed

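Polyadenylated RNA of the sorted fractions was amplified by Quartz-Seq, without molecular identifiers, and sequenced. Reads were aligned by the authors to GRCz11 (HISAT2 2.1.0) and expressed as RPM per gene (Subread 1.6.4). Neither the annotation release nor the strand setting was given in the sources used here. The deposited RPM values, listed to 2 decimals, were used without further scaling. Of these, 99.8% to 100.0% per library were whole multiples of 1 read within 0.005 RPM, which gave the depths. Limits from 3 reads (0.123 to 0.254 RPM) cover counting error only.

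Groups came from the labels. The paper's one-way test on fractions of 2 libraries was replaced by limma 3.58.1 (trend, robust) in R 4.3.3 on log2(RPM + 1). It covered 14006 genes that reached 1 RPM in 2 or more libraries, fitted a mean per fraction with 3 residual degrees of freedom and used Benjamini-Hochberg adjustment over all tested genes of a comparison. Each ± value beside a log2 fold change is its SE, and each adjusted p in the text is limma's. P-values measure the spread between these libraries, and OB was assumed to vary like the other fractions. The fit shared 1 spread per gene over all fractions, although EV replicates differed more than the others. The SD of log2 differences between replicates was 1.22 in EV, 0.62 in mOC and 0.624 in pOC. The SE may therefore be too small where EV is compared and too large where it is not. edgeR 4.0.16 was run on recovered reads as an alternative, in which pOC reads rest on the widest rounding (0.122 of a read).

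Members and gene lists were chosen with earlier results of these data known. Symbols came from a table of Ensembl IDs, which named 28988 of the 32057 genes. Members were named, 39 in all, where called, where among the 5 of highest mean in a role, or where of the *bmp2*, *bmp4*, *bmp6*, *bmp7*, *tgfb1* to *tgfb3*, *inhba*, *nog*, *grem*, *chrd* or *fst* genes with 1 RPM in a library; other members were added to account for the rest, and a few genes counted in the totals are not reported here by name. Paralogs share sequence, so counts of genes with one symbol may be split between them. No sequence was used here. Python 3.11.15 (pandas 2.3.3, numpy 2.4.6, matplotlib 3.10.9) made the tables and figures. Alternatives were other pseudocounts and filters, quantile normalization, limma without the robust setting, a replicate block, edgeR, the rule of the methods, fits of a pair alone, each library left out and, added after seeing the data, the fit without the OB library.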

Additional observations from a re-analysis of the deposited data

How the results depend on the processing

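Member counts were within 1.5 times the main count except as follows. In EV against the rest (7) they were 1 with no filter, 2 with edgeR and 3 without the OB library. In mOC against the rest (18) they were 10, 10 and 11 under the same settings. In pOC against the rest (0) there was 1 by the rule of the methods, an unadjusted F test with a 2-fold change, and 1 without the OB library. In OB against the rest (7) there were 3 with a pseudocount of 0.1 RPM, 12 with 5 RPM and 15 by the rule of the methods. In EV against OB (8) there were 5 with a pseudocount of 0.1 RPM, 4 with edgeR, 13 by the rule of the methods and 3 in the fit of the pair. In mOC against pOC (6) there were 1 with no filter, 16 by the rule of the methods and 17 in the fit of the pair. Shares of all genes are not given for the pseudocounts, the filters, the rule of the methods and the fits of a pair. Counts under those settings are therefore not a result about the members. With each library left out in turn the counts ranged from 0 to 15 in EV, 2 to 28 in mOC, 0 to 1 in pOC and 0 to 25 in OB against the rest, 0 to 22 in EV against OB and 0 to 18 in mOC against pOC. The cause was not tested. Over all genes edgeR called 553, 1078, 19 and 457 in EV, mOC, pOC and OB against the rest, 415 in EV against OB and 437 in mOC against pOC, against 889, 1350, 34, 587, 707 and 619 with limma. Of 99 calls of members and other pathway genes, 0 reversed under any alternative.

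With the replicate number as a block the member counts were 6 in EV, 17 in mOC, 0 in pOC and 8 in OB against the rest, 9 in EV against OB and 6 in mOC against pOC. Of the 99 calls, 10 were not made with the block, among them those of *tgfb5* and *tgfbr1* 42259 in mOC, *tgfbr3* in EV and OB and *bmper* in EV and OB against the rest, and *smad3* 36096 in mOC against pOC. Differences between replicates correlated at 0.0704 between EV and mOC, 0.0697 between EV and pOC and 0.172 between mOC and pOC, so the libraries share only a number and were not taken as paired. Depth limits members under 3 reads, 0.123 to 0.254 RPM.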

Other observations

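Levels of the members called higher in OB were also set against *col1a1a*, the collagen gene among the osteoblast markers, a choice made after the data were seen. Per 100 RPM of *col1a1a*, *inhba* 12671 had 6.94 in OB, 2.77 and 6.27 in EV, 5.36 and 10.5 in mOC and 8.18 and 9.29 in pOC RPM, and *fstl1* 39576 had 14.4 in OB, 14.2 and 15.8 in EV, 15.4 and 18.0 in mOC and 17.5 and 15.3 in pOC RPM. On this scale the OB value lay within the range of the other libraries for both genes. *fstl3* had 61.0 in OB, 11.5 and 39.3 in EV, 33.2 and 56.0 in mOC and 60.6 and 66.1 in pOC RPM per 100 RPM of *col1a1a*, where OB lay between the pOC libraries. *fst* 57992 had 1.27 in OB, 0.408 and 0.624 in EV, 0.269 and 1.89 in mOC and 0.889 and 0.924 in pOC RPM on the same scale, with mOC replicate 2 above OB. *inhba* 24759 had 1.75 in OB, 0.188 and 1.09 in EV, 0.403 and 1.01 in mOC and 1.5 and 1.53 in pOC RPM, and here OB was the highest of the 7 libraries, with both pOC libraries next. *tgfbr2l* had 0.407 in OB, 0.0446 and 0 in EV, 0.134 and 0 in mOC and 0.665 and 0.334 in pOC RPM on that scale, with pOC replicate 1 above OB, and *tgfbr3* had 0.237 in OB, 0 and 0 in EV, 0.304 and 0.439 in mOC and 0.184 and 0.172 in pOC RPM, with both mOC libraries above OB. The *tgfbr3* values in mOC rested on only 9 and 6 reads, and *col1a1a* was itself lowest there, at 231 and 116 RPM. A ratio of this kind shows unequal change only, and no test was made of it. It also rests on 1 marker, and another marker can give another order. *alpl*, of the same list, was found at 27.96 RPM in OB, 17.54 and 37.15 in EV, 10.27 and 7.11 in mOC and 11.87 and 12.04 in pOC. No ratio to *alpl* was taken.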
